A study of Mus musculus with 9 samples.

Results

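The smooth muscle contractile genes were followed as 10 loci of the deposited table, *Acta2*, *Actg2*, *Myh11*, *Tagln*, *Cnn1*, *Des*, *Smtn*, *Lmod1*, *Myocd* and *Mylk*. They were taken by gene symbol, and all 10 were found among 24138 loci. Bulk RNA-seq was performed on whole mouse kidneys at E15.5 (the embryonic stage), with 3 kidneys per genotype and 1 library per kidney. *Foxd1GC/+;Ntn1fl/fl* kidneys (MUT) carry a GFP-Cre knocked into 1 *Foxd1* allele and 2 floxed alleles of *Ntn1*, which encodes the secreted guidance cue netrin 1. *Foxd1GC/+;Ntn1fl/+* kidneys (HET) carry the same knock-in with 1 floxed allele, and *Ntn1fl/fl* kidneys (WT) carry 2 floxed alleles and no Cre. All 3 genotypes hold at least 1 floxed allele and came from 3 crosses, and which cross gave which kidney is not stated in the sources used here. The Cre is driven from *Foxd1*, so recombination is expected in stromal progenitors and their descendants, and a whole kidney mixes these with cells in which *Ntn1* stays intact. HET and MUT also share the loss of 1 functional *Foxd1* allele, so WT differs from both by the knock-in as well as by *Ntn1*.

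Smooth muscle shortens when calcium and calmodulin activate myosin light chain kinase, which phosphorylates myosin so that it can pull on actin filaments. The genes of this machinery are switched on together as a mural cell matures, largely through serum response factor and its coactivator myocardin, which act at CArG boxes (CC, then 6 bases that are each A or T, then GG). In the developing kidney the *Foxd1* lineage gives rise to vascular smooth muscle, pericytes and mesangial cells, while smooth muscle also wraps the ureter and renal pelvis. Study of the genotypes asks whether stromal *Ntn1* loss alters these programs, and HET is the comparator that shares the Cre allele with MUT.

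As a check on the labels, *Ntn1* was listed at 26.1, 28.9 and 17.8 FPKM (fragments per kilobase of transcript, scaled to the library) in the WT libraries. It was at 12.3, 12.0 and 16.5 in HET and at 10.8, 16.5 and 11.04 in MUT. Both Cre genotypes lay below WT without overlap, whereas HET and MUT overlapped, so whole-kidney *Ntn1* did not tell these 2 genotypes apart. Markers of the developing kidney were present in every library, with all 17 of those listed at a mean of at least 1 FPKM and *Cited1*, a nephron progenitor gene, the most abundant at 93.4. *Foxd1*, interrupted by the knock-in, averaged 31.0±4.46 FPKM in WT, 21.1±0.801 in HET and 23.9±1.22 in MUT (n=3 each).

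2 HET libraries stood apart before any comparison of smooth muscle genes. HET-2 held liver transcripts, with 10 liver markers summing to 800 FPKM against 33.9 to 59.8 in the other 8 libraries, and *Alb*, serum albumin, at 244 FPKM against at most 4.77. *Afp*, fetal alpha-fetoprotein and the most abundant of the list, was at 217 FPKM there against 22.6 to 44.3 elsewhere. The same library held 4.93 FPKM of *Th* and 5.13 of *Dbh*, enzymes of catecholamine synthesis, against at most 0.359 elsewhere. HET-3 held striated muscle transcripts, with 17 markers summing to 298 FPKM against 16.4 to 32.7 elsewhere. Among them, *Acta1* (skeletal muscle alpha-actin) was at 41.5 FPKM against at most 1.95, and *Ckm* (muscle creatine kinase) was at 11.6 against at most 0.233. HET-1 held neither excess, at 46.1 FPKM for the liver list and 23.6 for the striated muscle list. Several of the differences are therefore also given without these libraries.

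Promoter sequence is shown for *Acta2*, *Cnn1* and *Des*, the genes with the largest ratio of HET mean to WT mean among those with a sequence at hand, because CArG boxes are the textbook control sites of these genes. Each run is 300 bases of GRCm38.p6 from RefSeq, from 250 bases before to 50 after the annotated start, 5′ to 3′ on the strand of the gene. Capitals mark matches to a relaxed CArG pattern, with at most 1 G or C in the 6-base core.

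*Acta2*, chr19:34255324-34255623, minus strand: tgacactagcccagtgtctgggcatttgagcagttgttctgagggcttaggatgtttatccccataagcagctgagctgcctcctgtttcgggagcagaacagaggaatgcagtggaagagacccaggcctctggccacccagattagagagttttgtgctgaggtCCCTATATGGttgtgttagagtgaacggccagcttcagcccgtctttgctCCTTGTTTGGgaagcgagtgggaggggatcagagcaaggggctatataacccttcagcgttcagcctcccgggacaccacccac
*Cnn1*, chr9:22099003-22099302, plus strand: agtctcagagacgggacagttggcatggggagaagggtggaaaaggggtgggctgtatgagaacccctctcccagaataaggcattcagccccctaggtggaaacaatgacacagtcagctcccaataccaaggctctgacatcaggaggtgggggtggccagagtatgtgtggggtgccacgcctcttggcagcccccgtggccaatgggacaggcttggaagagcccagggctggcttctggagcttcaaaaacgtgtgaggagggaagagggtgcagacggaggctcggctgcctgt
*Des*, chr1:75360042-75360341, plus strand: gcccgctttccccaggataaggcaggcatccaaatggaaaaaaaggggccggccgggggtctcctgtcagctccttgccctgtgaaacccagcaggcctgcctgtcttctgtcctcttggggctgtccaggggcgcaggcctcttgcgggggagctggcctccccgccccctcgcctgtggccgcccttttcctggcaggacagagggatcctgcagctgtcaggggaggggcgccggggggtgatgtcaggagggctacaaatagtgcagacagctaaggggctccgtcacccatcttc

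Of the 10 genes, 6 had a promoter in the RefSeq table (*Acta2*, *Cnn1*, *Des*, *Smtn*, *Lmod1* and *Mylk*). The exact CArG box was in 0 of these 6 windows and in 1.63% of 32851 mouse promoters of the same length. The relaxed pattern was in 1 of the 6, *Acta2*, and in 9.98% of all promoters. *Acta2* held it at 2 places, CCCTATATGG with its first base 84 bases before the start and CCTTGTTTGG with its first base 34 bases before it. The pattern reads the same on both strands, so each match was counted once. These matches describe letters in a short window and are not evidence of binding by any factor.

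The 10 genes spanned a wide range of abundance in the E15.5 kidney. *Acta2*, which encodes smooth muscle alpha-actin, was the most abundant at a mean of 66.5 FPKM over the 9 libraries. It was followed by *Tagln* (transgelin, an actin-binding protein, 39.7), *Smtn* (smoothelin, a cytoskeletal protein, 25.7), *Mylk* (myosin light chain kinase, 19.3) and *Des* (desmin, the intermediate filament of muscle, 17.8). *Actg2* (smooth muscle gamma-actin, 6.77), *Myh11* (smooth muscle myosin heavy chain, 4.68) and *Cnn1* (calponin, which binds actin and restrains myosin, 3.03) were lower. *Myocd* (myocardin, 0.893) and *Lmod1* (leiomodin, an actin filament nucleator, 0.565) lay under the 1 FPKM mean required for testing, which left 8 genes tested. Since FPKM is per length, this order compares levels between genes. It was the same in all 9 libraries for 6 of the 9 neighbouring pairs. *Mylk* exceeded *Des* in only 4 of 9 libraries, and their levels did not differ beyond their spread. *Actg2* exceeded *Myh11* and *Myocd* exceeded *Lmod1* in 8 of 9 libraries each. All 10 genes were listed above 0 in every library.

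**Figure D1:**
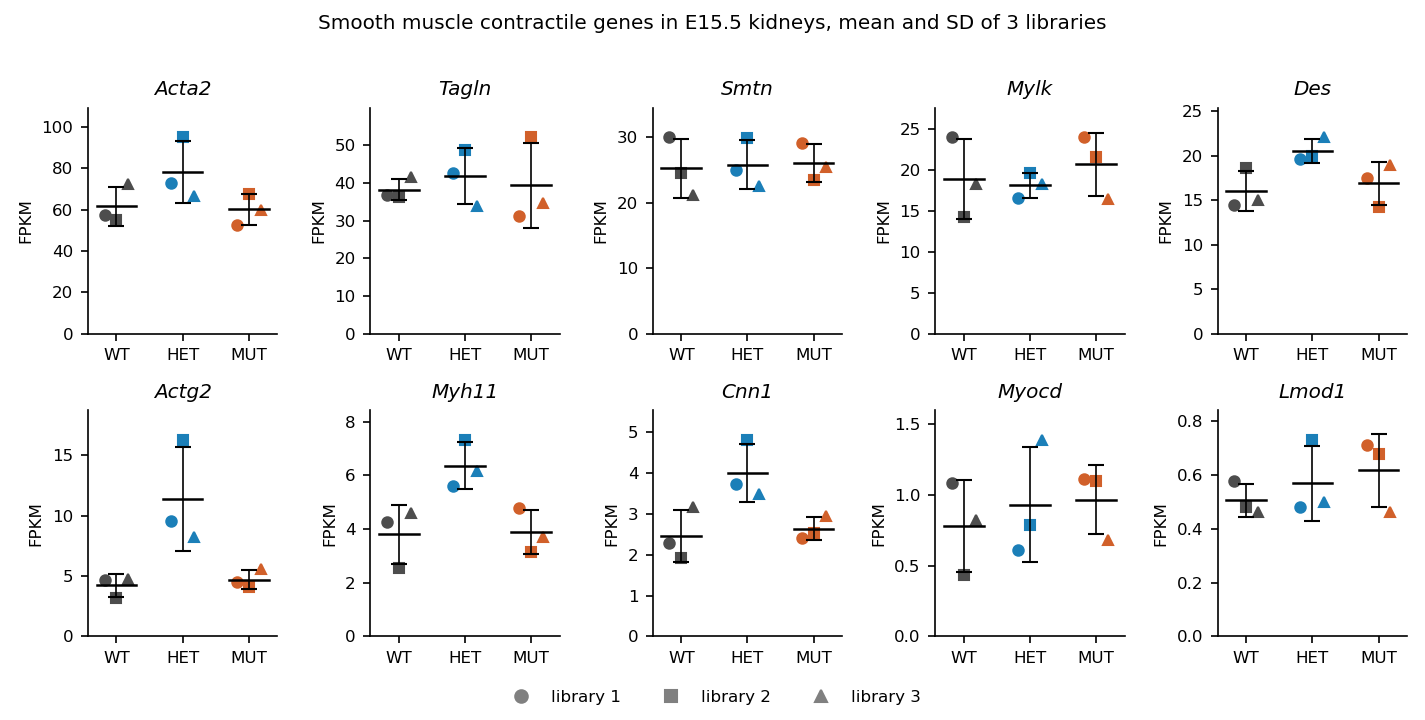
FPKM (vertical axes, linear from 0) of each smooth muscle contractile gene in the 3 libraries of each genotype, with a long bar for the mean and error bars for the SD. The 3 HET libraries of *Actg2*, *Myh11*, *Cnn1* and *Des* sit above all WT and MUT libraries, whereas the genotypes overlap for the other 6 genes.

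*Actg2* showed the widest spread of the group, and its highest library was 5.16 times its lowest. It lies on chromosome 6 from 83512909 to 83536251 (mm10). Its levels were 4.71, 3.16 and 4.79 FPKM in WT, 9.59, 16.3 and 8.24 in HET, and 4.53, 4.06 and 5.55 in MUT. Every HET library lay above every WT and MUT library, while WT and MUT overlapped. The ratio of means was 2.70 for HET over WT and 0.414 for MUT over HET. On the log2(FPKM + 1) scale, which understates changes at low levels, MUT minus HET was -1.07 (95% interval -1.56 to -0.58). The unadjusted p from limma was 0.000575, but after Benjamini-Hochberg adjustment over all loci p was 0.847. HET minus WT was 1.21 (0.72 to 1.70, adjusted p = 0.999 in limma). The exact two-sided permutation test gave p = 0.1 for each, which is the smallest that 3 libraries against 3 allow. Bulk RNA cannot tell fewer smooth muscle cells apart from less RNA per cell, and neither can it tell vascular from ureteric smooth muscle.

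*Myh11*, on chromosome 16 from 14194527 to 14291408, had the same order of genotypes. Its levels were 4.27, 2.54 and 4.59 FPKM in WT, 5.61, 7.33 and 6.18 in HET, and 4.77, 3.16 and 3.70 in MUT. HET lay above the other genotypes without overlap. The log2 difference was -0.60 for MUT minus HET (-1.01 to -0.19) and 0.64 for HET minus WT (0.23 to 1.05).

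*Cnn1* was at 2.28, 1.92 and 3.15 FPKM in WT, 3.74, 4.81 and 3.47 in HET, and 2.42, 2.54 and 2.95 in MUT. The lowest HET library was again above the highest library of either other genotype. MUT minus HET was -0.46 (-0.79 to -0.12) and HET minus WT was 0.54 (0.21 to 0.88) on the log2 scale. The interval listed for *Cnn1*, on chromosome 9 from 22055460 to 22389206, also carries 14 other rows of the table, each with its own FPKM.

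*Des*, on chromosome 1 from 75360292 to 75375015, is expressed in striated as well as smooth muscle. It was at 14.4, 18.6 and 14.99 FPKM in WT, 19.6, 20.0 and 22.1 in HET, and 17.5, 14.2 and 19.0 in MUT. Its highest library was HET-3, which held the striated muscle transcripts, and how much these added to *Des* was not tested. HET-1 and HET-2 also lay above all WT and MUT libraries, HET-1 exceeding the highest MUT library by less than 1 FPKM. MUT minus HET was -0.28 (-0.57 to 0.01) and HET minus WT was 0.35 (0.06 to 0.64) on the log2 scale. Without MUT-2, its lowest library, MUT minus HET for *Des* was -0.17.

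*Acta2*, on chromosome 19 from 34240336 to 34255373, was at 57.6, 54.7 and 72.1 FPKM in WT, 72.7, 94.98 and 66.6 in HET, and 52.4, 67.6 and 59.96 in MUT. Its mean was highest in HET, but HET-3 lay below the highest library of WT and of MUT, so the genotypes overlapped. MUT minus HET was -0.37 (-0.72 to -0.02, adjusted p = 0.847 in limma) on the log2 scale, and the exact permutation p was 0.2. *Acta2* and *Actg2* encode near-identical actins, as do *Acta1*, *Actc1*, *Actb* and *Actg1*, and how shared reads were divided among them is not given in the sources used here.

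*Tagln*, *Smtn* and *Mylk* did not separate the genotypes. *Tagln* was at 36.8, 36.3 and 41.5 FPKM in WT, 42.6, 48.6 and 33.9 in HET, and 31.2, 52.1 and 34.7 in MUT, so that its highest and lowest libraries were both MUT. Its means of 38.2±2.88 in WT, 41.7±7.43 in HET and 39.3±11.2 in MUT had the order of *Actg2*, within the spread of the libraries. *Smtn* means were 25.3±4.46, 25.8±3.72 and 26.0±2.89 FPKM in WT, HET and MUT (mean±s.d., n=3 each). *Mylk* means were 18.9±4.89, 18.2±1.51 and 20.7±3.83. For MUT minus HET the 95% intervals were -0.51 to 0.31 for *Tagln*, -0.31 to 0.34 for *Smtn* and -0.23 to 0.57 for *Mylk* on the log2 scale. All 3 intervals span 0, and none is narrow enough to show that the levels were alike. The 2 genes under the test minimum also overlapped between genotypes, with *Myocd* at 0.781±0.328, 0.931±0.408 and 0.967±0.244 FPKM in WT, HET and MUT, and *Lmod1* at 0.507±0.0614, 0.571±0.140 and 0.618±0.136. With no FPKM minimum, MUT minus HET for *Myocd* was 0.04 on the log2 scale, with a 95% interval of -0.38 to 0.46. That interval is too wide to tell whether the transcript of the coactivator shared the HET-high order of *Actg2*, *Myh11* and *Cnn1*. *Myocd* was highest in HET-3, at 1.39 FPKM. There 10 cardiac muscle markers summed to 28.3 FPKM against at most 8.34 elsewhere, with *Myl4* the most abundant at 16.5 and *Nkx2-5* listed at 0 in all 9 libraries. HET-3 is also the library that held the striated muscle transcripts. The cells behind the cardiac list transcripts were not identified, and their part in *Myocd* was not tested.

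Across the table, limma called 0 of 12915 loci in MUT against HET (0%), 0 in HET against WT and 0 in MUT against WT at an adjusted p under 0.05. At an unadjusted p under 0.05 there were 499, 148 and 178 loci. The 8 tested genes were therefore also called in none of the comparisons, and the MUT minus HET adjusted p was 0.847 in limma for each of *Acta2*, *Actg2*, *Myh11*, *Cnn1* and *Des*. In MUT against HET, 4 of the 8 genes lay entirely below HET, against a background of 4.79% of all loci tested, and 0 lay entirely above, against 4.77%. In HET against WT the same 4 genes lay entirely above WT (background 2.44%) and 0 entirely below (1.37%). In MUT against WT, 0 lay entirely above (1.73%) and 0 entirely below (1.91%). HET libraries all exceeded all WT and MUT libraries for 4 of the 8 genes and for 90 of the 12915 loci, or 0.697%. The median log2 difference of the 8 genes was -0.32 for MUT minus HET, 0.34 for HET minus WT and 0.06 for MUT minus WT, beside -0.01, 0.00 and -0.00 over all loci. The first 2 comparisons share the HET libraries, so a high HET library moves both, and the first and last share MUT.

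**Figure D2:**
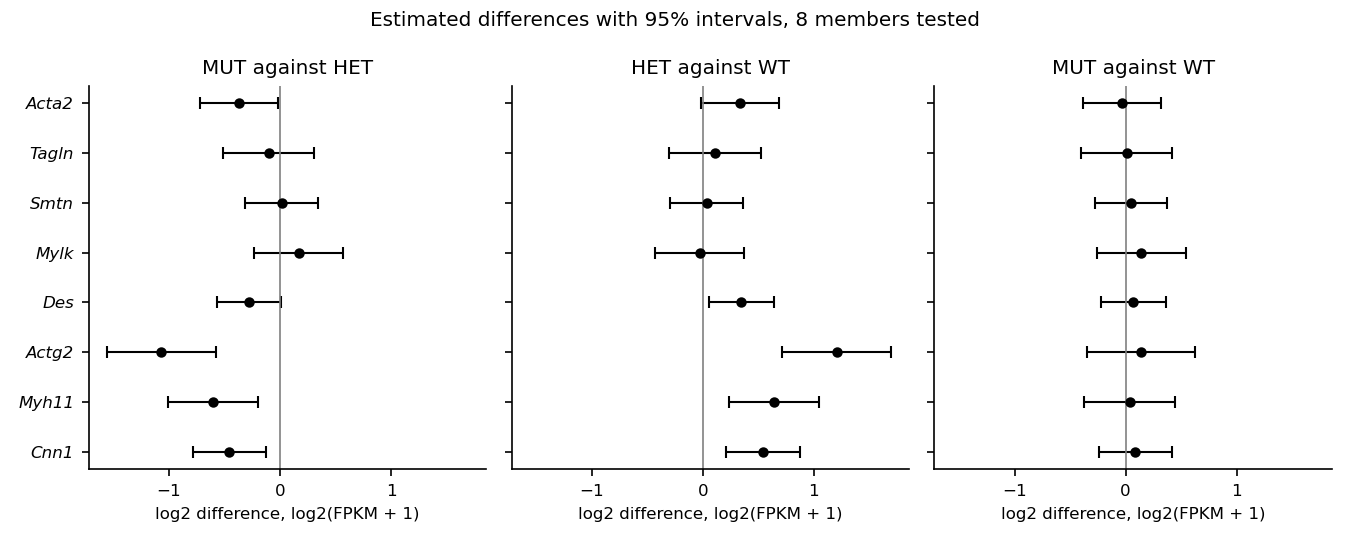
Estimated log2 difference (horizontal axes, log2(FPKM + 1) scale) of the 8 tested genes in each comparison, with bars for the 95% intervals of limma before any adjustment for the number of loci. *Actg2*, *Myh11* and *Cnn1* lie left of 0 for MUT against HET and right of 0 for HET against WT, and for MUT against WT all 8 intervals span 0.

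MUT and WT kidneys overlapped for each of these genes, which does not show that their levels were alike. The log2 difference between them ranged from -0.03 for *Acta2* to 0.14 for *Mylk*, with an adjusted p of 1.00 for each in limma. The 95% intervals bound the difference at -0.38 to 0.32 for *Acta2*, -0.35 to 0.63 for *Actg2* and -0.37 to 0.45 for *Myh11*. They were -0.40 to 0.42 for *Tagln*, -0.24 to 0.42 for *Cnn1* and -0.22 to 0.36 for *Des*. For *Smtn* and *Mylk* they were -0.28 to 0.38 and -0.26 to 0.54.

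The differences were recomputed without the 2 HET libraries that held other transcripts. Counts of genes without overlap are not repeated for these fits, since leaving out a HET library can only keep or raise them. Without HET-2, *Actg2* was -0.80 for MUT minus HET and 0.94 for HET minus WT on the log2 scale, and *Acta2* was -0.22 and 0.19. Without HET-3, *Actg2* was -1.25 and 1.39 and *Des* was -0.23 and 0.30. *Tagln*, *Smtn* and *Mylk* were 0.013, 0.12 and 0.22 for MUT minus HET without HET-2, and -0.24, -0.072 and 0.17 without HET-3, so the signs of *Tagln* and *Smtn* turned with the library left out. For HET minus WT they were -0.0047, -0.071 and -0.083 without HET-2, and 0.25, 0.12 and -0.033 without HET-3. With both left out, the only HET library was HET-1, and its spread was assumed to equal that of the other genotypes. MUT minus HET was then -0.90 for *Actg2*, -0.45 for *Myh11*, -0.38 for *Cnn1*, -0.21 for *Des* and -0.28 for *Acta2*. The adjusted p was 0.995 in limma for each of these 5 values. The low side also leaned on 1 library, since WT-2 was the lowest of the 9 for 5 of the 10 genes. WT-2 was also the shallowest, at 0.574 of the depth of WT-1 as judged from the spacing of low FPKM. Without WT-2, HET minus WT was 1.05 for *Actg2* and 0.43 for *Myh11*.

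Levels relative to *Acta2* in the same library remove any factor common to all smooth muscle RNA of a library. *Actg2* was 8.19%, 5.77% and 6.63% of *Acta2* in WT, 13.2%, 17.1% and 12.4% in HET, and 8.63%, 6.001% and 9.25% in MUT. HET again lay above the others without overlap, so the HET excess of *Actg2* was larger than that of *Acta2*. *Cnn1* was 5.14%, 5.06% and 5.21% of *Acta2* in HET, against 3.51% to 4.37% in WT and 3.75% to 4.92% in MUT. *Myh11* was 7.71%, 7.72% and 9.28% in HET, above the 4.64% to 7.42% of WT, but overlapped MUT at 4.67% to 9.10%. *Des* had means of 26.6%, 27.0% and 28.7%, and did not separate the genotypes. *Tagln* was 53.6%±4.41 of *Acta2* in HET against 62.6%±4.54 in WT and 64.8%±10.7 in MUT, with overlap. *Smtn* was 34.3%, 31.5% and 33.9% in HET, entirely below MUT (55.6%, 34.7% and 42.6%), and overlapped WT at 29.4% to 52.2%. *Mylk* was 22.8%, 20.7% and 27.39% in HET, also entirely below MUT (45.8%, 32.0% and 27.53%), and overlapped WT at 25.4% to 41.8%. These ratios were not computed for other loci, so they have no background to set them against.

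**Figure D3:**
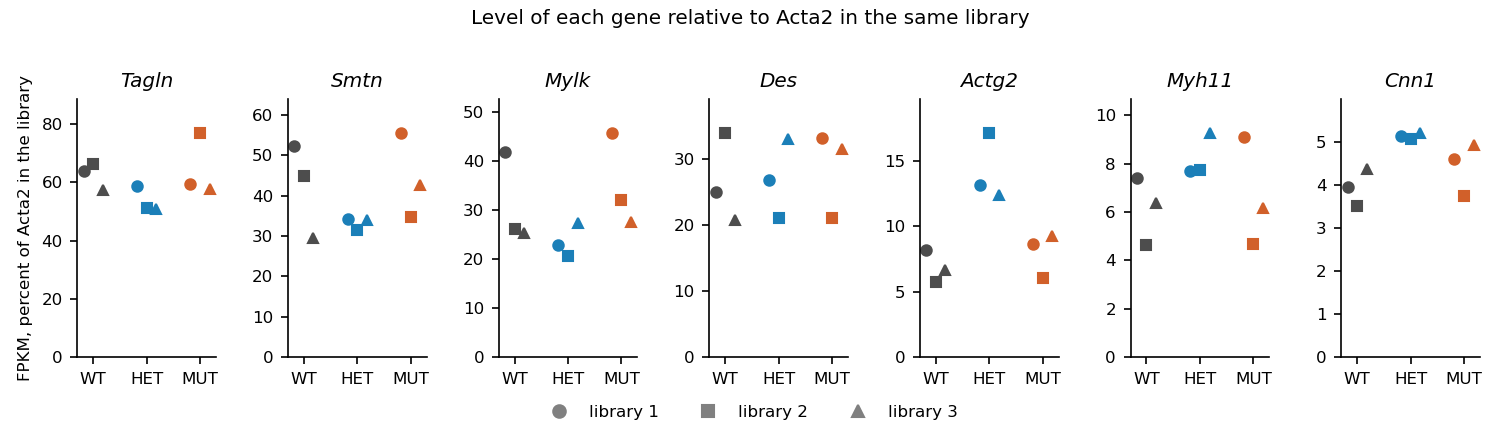
FPKM of 7 genes as a percent of *Acta2* in the same library (vertical axes, linear from 0), with 1 point per library and genotype on the horizontal axis. *Actg2* is at 12.4% to 17.1% in HET and at most 9.25% elsewhere, whereas *Des* overlaps across genotypes.

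Partners of the contractile apparatus, which bind, bundle or anchor its filaments, were far more abundant and broadly expressed. Of 30 such genes 29 were tested and 0 were called in any comparison. For MUT minus HET 20 were negative and 9 positive, with a median log2 difference of -0.08, where 6834 of all loci were negative and 6069 positive. The split was 16 negative and 13 positive without HET-2 (median -0.07), and 23 negative and 6 positive without HET-3 (median -0.13). The most abundant were *Myl6*, a myosin light chain (449±44.5, 481±35.8 and 440±99.6 FPKM in WT, HET and MUT), *Tpm4*, a tropomyosin (398±45.8, 392±13.8 and 376±30.1), and *Cnn3*, a non-muscle calponin (270±28.0, 278±4.62 and 253±20.4). The 3 of 29 that lay entirely below HET in MUT (background 4.79%) were *Pdlim3*, *Tpm2* and *Fhl2*. The 4 of 29 that lay entirely above WT in HET (background 2.44%) were *Pdlim3*, *Tpm2*, *Cryab* and *Hspb6*. *Pdlim3* was named for its large MUT minus HET difference, so its choice used its values, and the others were picked out after their values were seen. *Pdlim3*, an actinin-associated LIM protein of muscle, was at 3.75, 2.17 and 3.46 FPKM in WT, 4.48, 6.24 and 5.46 in HET, and 3.50, 3.996 and 3.49 in MUT. *Tpm2*, the beta-tropomyosin of muscle, was at 41.5, 43.4 and 39.1 in WT, 51.7, 54.7 and 52.5 in HET, and 43.5, 42.6 and 48.5 in MUT. Both thus had the HET-high order of *Actg2*, and both are also expressed in striated muscle. *Fhl2*, a LIM-domain cofactor, overlapped between HET and WT (53.2±3.27 and 53.3±4.67) and was 45.7±3.26 in MUT. *Cryab* and *Hspb6*, small heat shock proteins of muscle, were at 15.3±1.01 and 6.99±1.57 FPKM in HET against 12.5±0.537 and 5.07±0.530 in WT, and overlapped between HET and MUT. *Tns1*, a tensin of focal adhesions, had a MUT minus HET difference of 0.32 (SE 0.20, adjusted p = 0.847 in limma).

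Actin and myosin genes of other cells were described as a reference. 6 of 7 were tested and 0 were called. *Actb*, cytoplasmic beta-actin, was at 1146, 1400 and 1187 FPKM in WT, 1511, 1699 and 1335 in HET, and 1234, 1105 and 1341 in MUT, so its mean was highest in HET too, with overlap. The median MUT minus HET of the 6 was -0.19, and it was -0.13 without HET-2 and -0.04 without HET-3. *Actg1* (cytoplasmic gamma-actin) and *Myh10* (a non-muscle myosin) had MUT minus HET differences of -0.08 and 0.02. The largest differences were those of *Actc1* (-1.31) and *Acta1* (-1.27), the striated actins, with 62.8 and 41.5 FPKM in HET-3 alone. *Actc1* was at 7.97 and 10.3 in HET-1 and HET-2, against 3.41 to 5.77 in WT and 4.24 to 8.67 in MUT.

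Among genes that control smooth muscle transcription, 32 of 34 were tested and 0 were called. For MUT minus HET 22 were positive and 10 negative, with a median of 0.09 (0.11 without HET-2 and 0.11 without HET-3). Among the most abundant were *Tcf21*, a stromal factor (152±4.50, 172±17.8 and 162±24.0 FPKM in WT, HET and MUT) and *Tbx2*, a T-box factor (44.6±7.33, 41.7±3.98 and 48.1±5.88). 6 of 32 genes lay entirely above HET in MUT (*Notch3*, *Klf5*, *Srf*, *Mkl1*, *Mef2d* and *Foxo4*, background 4.77%) and 2 entirely below (*Hey1* and *Hey2*, background 4.79%). *Notch3*, a receptor of mural cells, was at 21.6, 15.9 and 11.2 FPKM in WT, 13.1, 12.2 and 13.6 in HET, and 24.4, 17.0 and 15.7 in MUT (log2 difference 0.49, SE 0.21). *Klf5*, a transcription factor of immature smooth muscle, was at 3.44, 2.56 and 2.31 in WT, 2.74, 3.30 and 3.55 in HET, and 5.65, 4.66 and 4.28 in MUT. *Klf5* in MUT thus exceeded both other genotypes without overlap, by 0.48 over HET and 0.64 over WT on the log2 scale (SE 0.14 each). The adjusted p in limma was 0.847 and 1.00. *Hey1*, a Notch target gene, lay the other way, entirely below both other genotypes in MUT, at 31.1±1.44, 33.7±2.35 and 27.6±2.18 FPKM in WT, HET and MUT (-0.28 for MUT minus HET, SE 0.10, and -0.17 for MUT minus WT). *Hey2*, a related gene, was at 5.62±0.683, 5.72±0.189 and 4.89±0.479. These and the following genes were picked out after their values were seen. *Srf*, which encodes serum response factor, was at 21.4±2.92, 20.6±0.580 and 23.3±1.77 FPKM in WT, HET and MUT. *Mkl1*, its myocardin-related coactivator, likewise lay entirely above HET in MUT (10.4±1.49 against 8.66±0.619), as did *Mef2d* (12.1±2.903 against 8.50±0.644) and *Foxo4* (26.6±1.27 against 24.4±0.684). In WT, *Mkl1*, *Mef2d* and *Foxo4* were at 9.16±2.28, 11.1±3.74 and 24.7±2.67, and each overlapped MUT. For HET minus WT 14 of the 32 were positive and 18 negative (median -0.02). *Tbx18* alone lay entirely above WT in HET (background 2.44%) and *Elk1* alone entirely below (1.37%). *Tbx18* was at 3.06±0.495, 4.35±0.593 and 3.90±0.374 FPKM in WT, HET and MUT, with MUT also entirely above WT. *Foxf1*, under the test minimum, was at 0.719 to 0.936 in HET, against at most 0.620 in WT and 0.483 in MUT.

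Markers of other cells that hold or neighbour smooth muscle gave the following levels. Of the pericyte, mesangial and renin cell markers 13 of 14 were tested, and the FPKM of all 14 summed to 378±20.4 in WT, 307±19.9 in HET and 307±31.4 in MUT, both Cre genotypes lying below WT. Without *Ren1* the other 13 summed to 237±13.3, 209±10.03 and 225±18.9, and MUT then overlapped WT whereas HET still lay below it. The most abundant was the renin locus *Ren1,Ren2*, at 149, 137 and 136 FPKM in WT, 108, 115 and 69.4 in HET, and 75.2, 106 and 64.3 in MUT. Its order (WT highest) was not that of *Actg2*. The 13 tested markers were 9 positive and 4 negative for MUT minus HET, with a median of 0.02, but 6 positive and 7 negative without HET-3, with a median of -0.03. For MUT minus WT 4 were positive and 9 negative (median -0.06), and for HET minus WT 1 was positive and 12 negative (median -0.12), with a median of -0.14 without HET-2 and of -0.21 without HET-3. The 10 urothelium and ureter markers summed to 89.4, 91.3 and 101 FPKM in WT, 114, 115 and 91.3 in HET, and 93.4, 115 and 109 in MUT. *Krt8*, which is also expressed in other epithelia, led them at 77.9, and the other 9 summed to 26.1, 16.8 and 21.1 in WT, 27.4, 29.7 and 19.8 in HET, and 21.02, 34.3 and 21.9 in MUT. All 7 tested markers were positive for HET minus WT, with a median of 0.19 (0.12 without HET-2 and 0.35 without HET-3). Of all 12915 loci 6489 were positive. The unadjusted p in limma was under 0.05 for 2 of the 7 markers, and for 148 of all loci. Without HET-2 it was so for 0 markers (77 of all loci), and without HET-3 for 1 (827 of all loci). All 7 markers were also positive for MUT minus WT, with a median of 0.19, and 3 were positive and 4 negative for MUT minus HET (median -0.02). Without HET-3 the latter were 1 positive and 6 negative (median -0.18). The 9 endothelial markers summed to 305±10.5, 292±12.9 and 295±15.52, led by *Emcn*, with 0 markers called. Markers of gut, a tissue rich in *Actg2*, summed to 3.25 FPKM in HET-2, the library with the highest *Actg2*, and to between 1.13 and 2.41 elsewhere, led by the locus *Lgals4,Lgals6*. *Tff3* and *Fabp2*, picked out after their values were seen, were also highest in HET-2, at 0.662 and 0.187. Other genes of the list were not. *Cdx1*, *Muc2* and *Isx* were at 0.166, 0.0669 and 0.0163 in HET-2, against up to 0.217, 0.0800 and 0.0433 elsewhere, and *Cdx2* was at 0 in HET-2. Gonad markers summed to between 3.37 and 5.17, led by *Insl3,Jak3*, and *Mc2r* led the adrenal list at a mean of 2.39. Erythroid markers, led by *Hbb-b1,Hbb-bs*, summed to 3493 in HET-2 against 1921 to 2296 elsewhere. The part of any of these cells in the smooth muscle values was not tested.

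**Figure D4:**
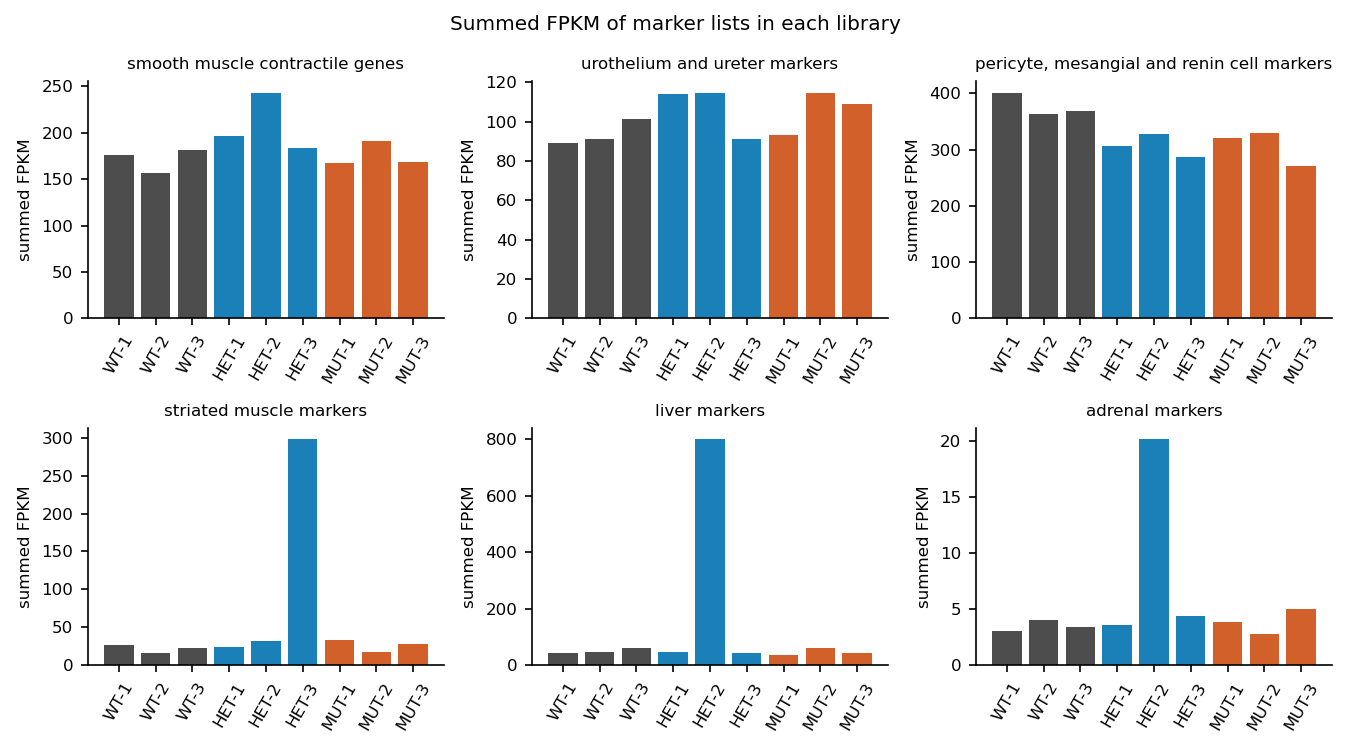
Summed FPKM (vertical axes, linear from 0, a different scale in each panel) of 6 marker lists in each of the 9 libraries. Smooth muscle genes are highest in HET-2 at 243 FPKM, liver and adrenal markers stand out in HET-2, and striated muscle markers stand out in HET-3.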

How the data were processed

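The authors aligned reads from stranded mRNA libraries with STAR, assembled transcripts with Cufflinks and computed FPKM with Cuffdiff. The build, per the labels, is mm10, whose chromosomes are those of GRCm38, and versions are not given in the sources used here. The deposited FPKM were used unchanged. Read totals are unknown, so the spread of 3 libraries gives the precision, and FPKM summed to 453753 to 545598 per library. Loci with a mean of at least 1 FPKM over all 9 libraries (12915 of 24138) entered 1 fit of all libraries on log2(FPKM + 1), with genotype as the only term, in limma 3.58.1 (R 4.3.3, eBayes, trended prior). All p are two-sided and were adjusted over all loci by the Benjamini-Hochberg method, at a threshold of 0.05. The members, gene lists and tests were chosen with earlier results of these data known. From each list the 3 most abundant genes and the 2 with the largest MUT minus HET difference were named, and for lists of other cells the most abundant gene and any at 0. Of the genes so chosen, 1 gene and 1 list are not reported here. P values measure the spread between these kidneys. Data for MUT against HET were simulated over 12915 loci with independent normal noise at each locus. Of loci changed 1.2, 1.5, 2 and 4-fold on the FPKM + 1 scale, limma called 0%, 44%, 88% and 98%. At low FPKM a fold on that scale is a larger fold of FPKM. No effect shared by the loci of a library was simulated, so these shares need not hold for the real libraries. Python 3.11.15 with pandas 2.3.3, numpy 2.4.6 and matplotlib 3.10.9 served for the rest.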

Additional observations from a re-analysis of the deposited data

How the results depend on the processing

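Each result was recomputed under 20 alternatives (pseudocounts of 0.1 and 3, no FPKM minimum, 5 FPKM in either group, median-ratio and quantile rescaling, only the genotypes compared, no trend, the replicate block, and libraries left out). For *Acta2*, *Actg2*, *Myh11*, *Cnn1* and *Des*, MUT minus HET stayed negative and HET minus WT positive under every alternative that gave a value, and every adjusted p of these genes was 0.432 or higher. *Actg2* ranged from -1.25 to -0.80 for MUT minus HET, with adjusted p from 0.432 to 1. Of 475 values, 451 kept their sign. The 24 that reversed were those of *Tagln*, *Smtn* and *Mylk* and of MUT minus WT. With single libraries left out, MUT minus HET ranged from -0.32 to 0.043 for *Tagln* and -0.072 to 0.12 for *Smtn*. HET minus WT ranged from -0.0047 to 0.25 for *Tagln*, -0.079 to 0.16 for *Smtn* and -0.20 to 0.15 for *Mylk*. MUT minus WT ranged from -0.12 to 0.087 for *Acta2*, -0.018 to 0.22 for *Actg2*, -0.17 to 0.16 for *Myh11*, -0.21 to 0.15 for *Tagln*, -0.024 to 0.23 for *Cnn1*, -0.013 to 0.18 for *Des*, -0.064 to 0.18 for *Smtn* and -0.034 to 0.32 for *Mylk*.

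Without HET-2 and HET-3 together, an alternative added after seeing the data, HET minus WT for *Smtn* was -0.0030, and 1 locus was called in MUT against HET and 1 in HET against WT (*Snord49b* in each). With single libraries left out, loci called ranged from 0 to 2 in MUT against HET, 0 to 5 in MUT against WT and 0 to 1 in HET against WT. The 2 were called without MUT-2 (*2610507I01Rik* and *Snora68*), as were the 5, and the 1 was *Snord35a* without WT-2, where MUT against WT gave 2. With no FPKM minimum, 1 locus was called in MUT against WT (*Crisp1*, mean 0.0659 FPKM). None was a smooth muscle contractile gene, and the cause was not tested.

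Libraries share replicate numbers across genotypes, but deviations of same-numbered libraries correlated at -0.274 to 0.557, so the numbers were not taken as pairs. Differently numbered libraries of different genotypes correlated at -0.553 (WT-1 and MUT-3) to 0.484 (WT-2 and MUT-3). The depths of WT-2 and MUT-3 were 0.574 and 0.616 of that of WT-1. What such libraries shared across genotypes was not tested. With the replicate block in the fit of 9 libraries, 0 loci were called in each comparison, and *Actg2* was -1.07 for MUT minus HET (adjusted p = 0.778 in limma) and 1.21 for HET minus WT (adjusted p = 0.995).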

Other observations

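Loci outside the group were ranked by the Pearson correlation of log2(FPKM + 1) over the 9 libraries with the mean standardised profile of the 8 tested genes. This is a description, since genotype, depth and the other tissue transcripts of HET-2 and HET-3 also differ between the libraries. The closest were *Pdap1* (r = 0.946), *Cpxm2* (0.928), *Tuft1* (0.920), *Pdlim3* (0.915), *Tgm2* (0.908), *Ywhah* (0.889), *Idua* (0.887), *Irak2* (0.882), *Lgals9* (0.872) and the joined locus of *Clcf1* and *Pold4* (0.867). *Pdap1* was at 70.7, 66.1 and 71.9 FPKM in WT, 74.3, 79.4 and 73.2 in HET, and 71.9, 72.1 and 72.9 in MUT, a narrow range in which HET still lay above both other genotypes. *Tgm2*, a transglutaminase, was at 15.3, 15.2 and 15.8 in WT, 16.3, 20.1 and 17.1 in HET, and 16.4, 16.6 and 15.8 in MUT.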
